A study of Mus musculus with 18 samples.

Results

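The 9 genes described here belong to the hypoxia-inducible factor (HIF) program or to glycolysis, and their mRNA levels were followed across all 6 treatments of an RNA-seq experiment in L929 cells, a line of mouse fibroblasts. The genes were Slc2a1, Hk2, Pfkfb3, Ldha, Pdk1, Vegfa, Bnip3, Egln3 and Ankrd37. They were found by their gene name in the table of read counts, where each matched 1 row, so they are 9 of 57180 genes, and all 9 were among the 14263 genes that passed the filter on low counts. The cells were wild type by their label. Each group had 3 libraries, given by the study as independent cultures. Mock cells carried the label DMSO. The AOA group received 0.5 mM aminooxyacetic acid (AOA), an inhibitor of aminotransferases, and the AOA+Asp group received the same AOA with 20 mM aspartate. For both groups AOA was listed as a 1 h pretreatment, and no time of harvest was listed. Whether their total time in AOA matched that of the groups with HT-DNA and AOA therefore cannot be told. The HT-DNA group was transfected with 0.5 μg/ml herring testis DNA, a ligand of the DNA sensor cGAS, with Lipofectamine for 6 h. The HT-DNA+AOA group had AOA from 1 h before that transfection, and the HT-DNA+AOA+Asp group had AOA, aspartate and HT-DNA. No group received aspartate without AOA, so an effect of aspartate by itself and its effect on AOA-treated cells cannot be told apart. The sources used here do not say whether the Mock cells were given the transfection reagent. All libraries came from 1 cell line, and in bulk RNA fewer cells expressing a gene and less RNA per cell cannot be told apart.

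HIF is a transcription factor made of an oxygen-sensitive alpha subunit and the stable partner ARNT. Prolyl hydroxylases of the EGLN family mark the alpha subunit for removal by the VHL ubiquitin ligase when oxygen and 2-oxoglutarate are at hand, and HIF that escapes this binds short motifs built around the letters ACGTG or GCGTG. Its targets carry glucose into the cell, run glycolysis to lactate, keep pyruvate out of mitochondria and signal for new blood vessels. Glycolysis also makes NADH. The malate-aspartate shuttle, a route that depends on aminotransferases, moves the reducing power of this NADH into mitochondria, while lactate dehydrogenase turns NADH back into NAD+ in the cytosol.

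The libraries held 17901546 to 24057284 counts, and TMM factors, which scale libraries for composition, ran from 0.918 to 1.07. Of 10 fibroblast markers, 8 passed the filter, while Thy1 and Dcn, usual fibroblast markers, averaged under 1 CPM (counts scaled to the library size), and the summed level of the 10 was 4785 to 6919.9 CPM. With AOA 3 of the 8 rose and 3 fell by the test named below, which called 45.7% of all genes, 22.4% higher and 23.3% lower. Of 8 markers of leukocytes, macrophages, epithelium and endothelium, 1 passed (Cd68), and Ptprc and Adgre1 were at 0 counts in all 18 libraries (summed level 110.4 to 155 CPM). The HT-DNA+AOA libraries stood apart in their spread. The chi-square of counts over genes between their pairs was 18.2 to 67.0 per degree of freedom, highest between replicates 1 and 3, against 2.78 to 13.3 between pairs of the other groups. For the 9 genes, counts of AOA and aspartate effects that rest on this group are also given without each of its libraries. Fold changes are given on the log2 scale from edgeR's quasi-likelihood test over all 18 libraries, and genes were called at a Benjamini-Hochberg adjusted p under 0.05 over the 14263 genes tested. Scaling by library totals in place of TMM moved the median log2 fold change of all genes by -0.13 for AOA vs Mock and by -0.11 for HT-DNA vs Mock, which is close to the size of the smallest changes below.

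To show where the core HIF letters lie, the promoters of the 3 genes that fell when AOA was added to HT-DNA (Egln3, Bnip3, Ankrd37) are printed beside those of a pair that rose with AOA in the absence of HT-DNA (Ldha, Pdk1). Each run is the RefSeq window of mouse genome build GRCm38.p6 from 250 bases before to 50 bases after an annotated start site, read 5′ to 3′ on the strand of the gene, with matches to ACGTG or GCGTG on either strand in capitals. A match on the opposite strand reads CACGT or CACGC, and CACGTG holds overlapping matches on both strands.
Egln3 (chr12:54203825-54204124, minus strand): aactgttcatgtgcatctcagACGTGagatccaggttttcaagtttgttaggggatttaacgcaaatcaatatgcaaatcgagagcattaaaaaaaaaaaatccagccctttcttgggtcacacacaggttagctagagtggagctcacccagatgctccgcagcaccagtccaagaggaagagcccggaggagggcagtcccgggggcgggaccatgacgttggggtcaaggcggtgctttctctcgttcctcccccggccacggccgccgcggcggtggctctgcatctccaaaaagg
Bnip3 (chr7:138909457-138909756, minus strand): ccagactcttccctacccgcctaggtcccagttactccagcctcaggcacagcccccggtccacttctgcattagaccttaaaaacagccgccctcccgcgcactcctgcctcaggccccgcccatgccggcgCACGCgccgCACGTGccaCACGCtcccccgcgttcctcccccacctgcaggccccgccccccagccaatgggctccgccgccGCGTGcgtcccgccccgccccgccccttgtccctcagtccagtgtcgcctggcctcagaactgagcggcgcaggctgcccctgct
Ankrd37 (chr8:45999801-46000100, minus strand): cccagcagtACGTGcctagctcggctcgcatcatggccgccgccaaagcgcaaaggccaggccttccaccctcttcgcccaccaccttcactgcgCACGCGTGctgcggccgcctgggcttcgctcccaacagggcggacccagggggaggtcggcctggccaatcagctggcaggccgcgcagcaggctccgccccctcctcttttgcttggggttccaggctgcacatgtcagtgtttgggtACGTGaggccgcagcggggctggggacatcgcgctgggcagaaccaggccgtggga
Ldha, first start site (chr7:46845554-46845853, plus strand): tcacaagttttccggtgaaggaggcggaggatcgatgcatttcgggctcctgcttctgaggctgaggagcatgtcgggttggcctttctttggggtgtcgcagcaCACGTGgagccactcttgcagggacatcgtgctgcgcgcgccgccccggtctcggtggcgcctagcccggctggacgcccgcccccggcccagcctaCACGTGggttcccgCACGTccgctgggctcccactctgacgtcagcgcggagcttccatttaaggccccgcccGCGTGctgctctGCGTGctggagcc
Pdk1, first start site (chr2:71872974-71873273, plus strand): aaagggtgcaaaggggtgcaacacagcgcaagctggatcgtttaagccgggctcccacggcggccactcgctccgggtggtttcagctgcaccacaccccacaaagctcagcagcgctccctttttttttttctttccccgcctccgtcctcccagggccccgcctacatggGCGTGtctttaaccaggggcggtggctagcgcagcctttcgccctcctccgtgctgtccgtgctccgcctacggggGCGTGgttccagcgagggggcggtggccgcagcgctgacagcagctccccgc

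RefSeq windows were found for all 9 genes, 13 windows in all, and 11 of them held at least 1 match. By gene, 9 of 9 had a match in at least 1 window, whereas 46.7% of 27025 genes did, and 43.8% of all 32851 windows held one. In the first window alone 8 of 9 had one, all but Vegfa. The 9 genes were chosen as HIF or glycolysis genes, and they have more windows per gene (13 for 9) than all genes (32851 for 27025). ACGTG was in 19.6% of all windows and GCGTG in 32.4%. The Egln3 window had a single match, from -229 to -225 relative to the start site, and the first Ldha window had 7. No match was found in the first Vegfa window or in the second Pdk1 window. Matches were present in promoters of genes that rose and of genes that fell with AOA. They are matches of 5 letters in a window of 300 bases and do not show binding.

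**Figure D1:**
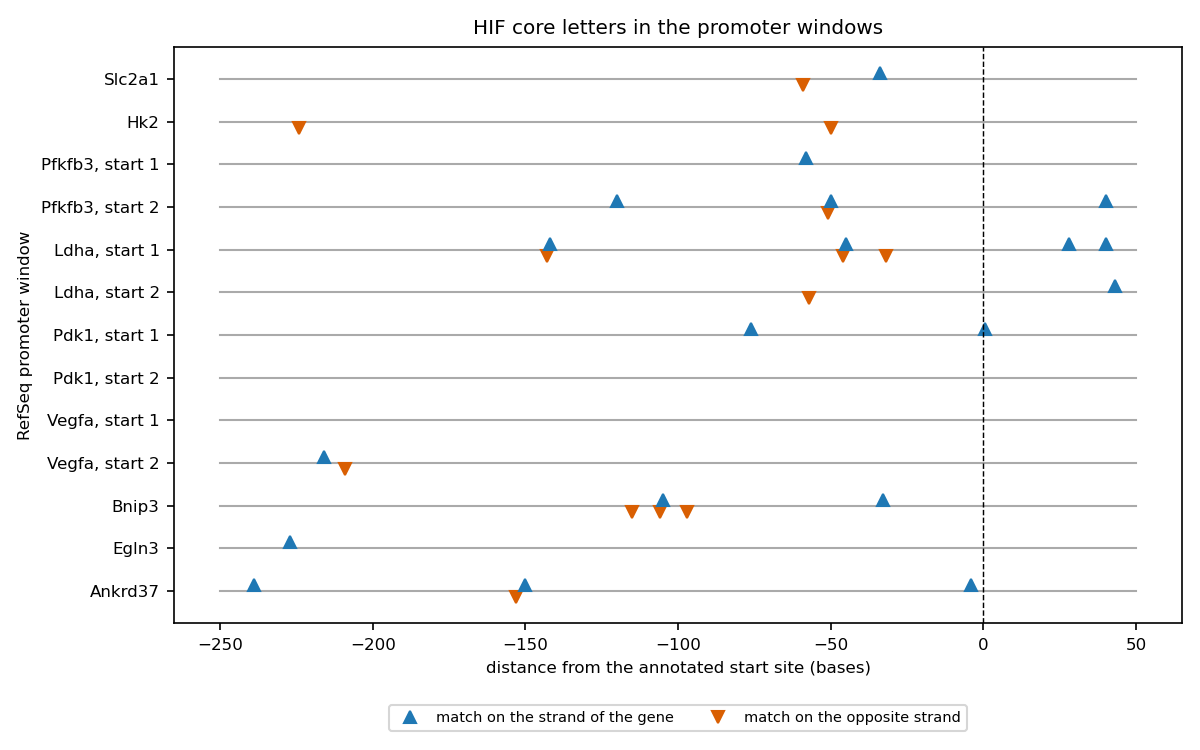
Positions of ACGTG or GCGTG matches in the 13 RefSeq promoter windows of the 9 genes. The x axis is the distance from the annotated start site in bases, the grey lines are the windows, and triangles are matches on the strand of the gene (up) or on the opposite strand (down). A reader should see 11 windows with a match, the first Ldha window with 7, and the first Vegfa and second Pdk1 windows with none.

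Levels spanned a wide range. Averaged over the 18 libraries and divided by exon length, Ldha, which makes lactate from pyruvate, stood at 439.8 CPM per kb. Egln3 followed at 64.3 CPM per kb, Slc2a1 at 44.0, Vegfa at 34.7, Hk2 at 21.7, Bnip3 at 14.3 and Pdk1 at 5.11. Pfkfb3 at 0.840 CPM per kb and Ankrd37 at 0.782 were the lowest, and Ankrd37 had only 8 to 42 counts in a library. Some reads of these genes could belong elsewhere, since 57% of the 31-base sequences of Bnip3, 21.4% of those of Ankrd37 and 19.6% of those of Ldha also occur in transcripts of other genes in GENCODE vM21. These are shares of annotated sequence and not of reads, and how far they affect the values of these 3 genes was not tested. For the remaining 6 genes the share was at most 2.09%, and it was 0 for Egln3.

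**Figure D2:**
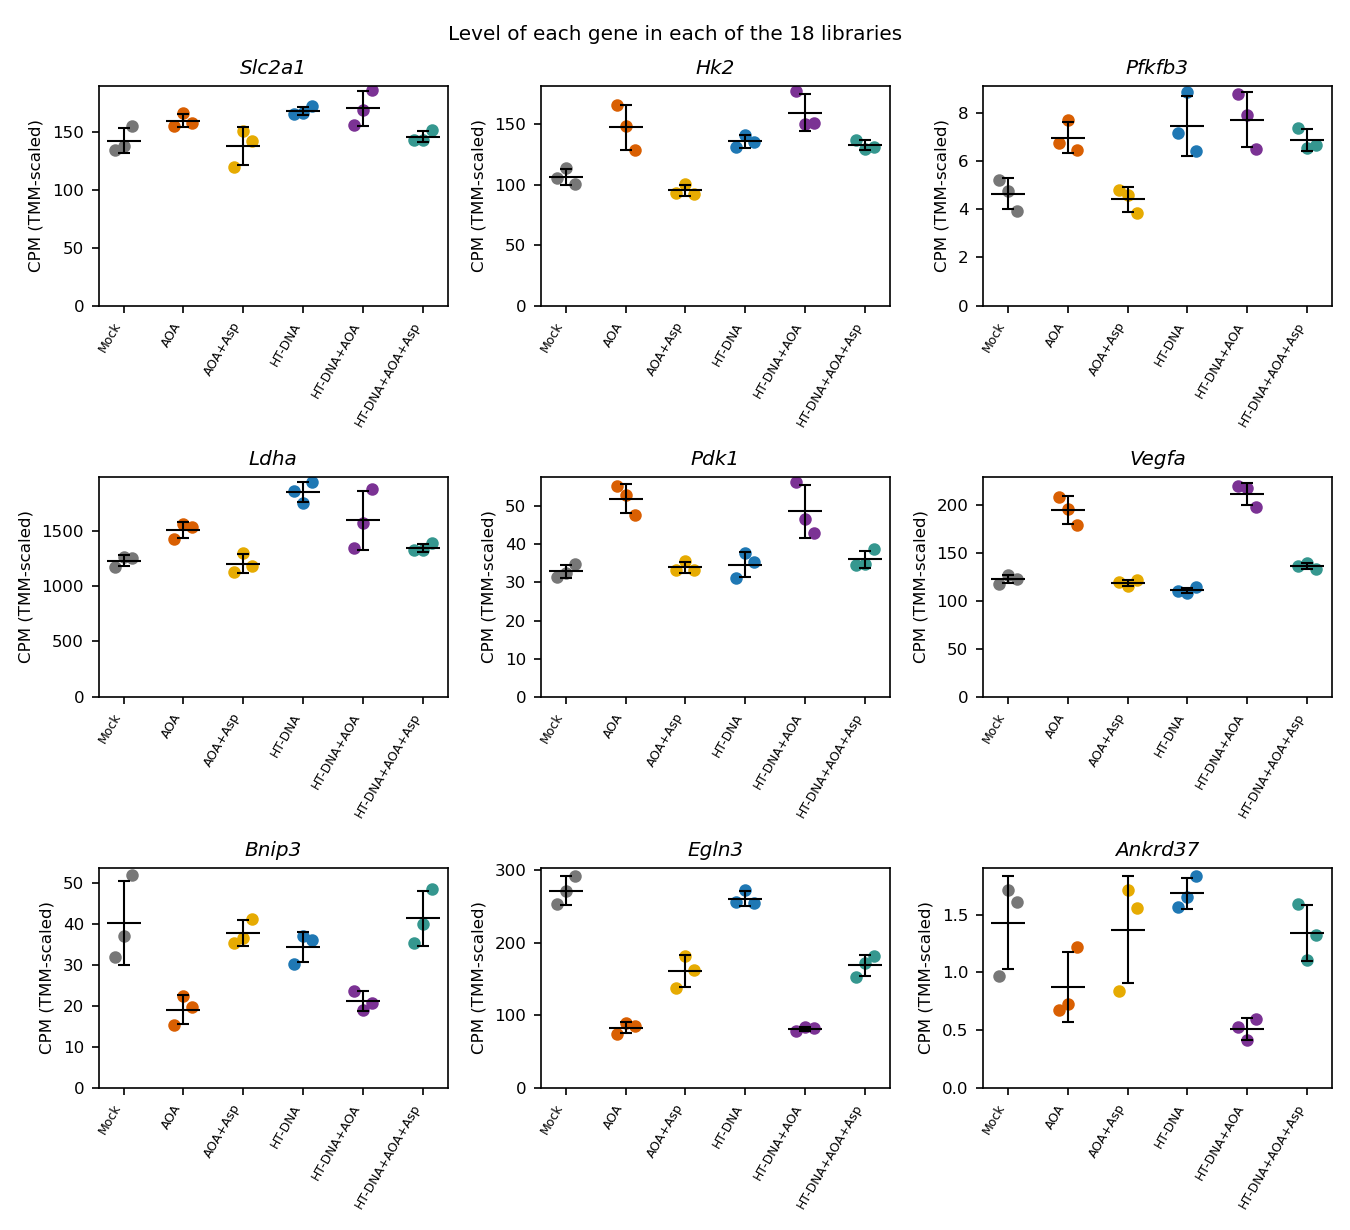
CPM (TMM-scaled, y axis from 0) of each gene in each library, by group on the x axis. Points are the 3 libraries of a group, and the bar and whiskers are the mean and SD. Egln3 was lowest in the AOA groups (means 82.8 and 81.0 CPM) and intermediate with aspartate (160.6 and 169 CPM), and Vegfa was highest in the AOA groups (194 and 211 CPM).

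AOA moved these genes in both directions. Compared with Mock, 5 of the 9 genes rose (Hk2, Ldha, Pfkfb3, Pdk1 and Vegfa) and 2 fell (Bnip3 and Egln3), while 45.7% of all genes tested were called, 22.4% higher and 23.3% lower. The libraries of both groups did not overlap for 8 of 9 genes, all but Ankrd37, and for 59.4% of all genes tested. When AOA was added to HT-DNA, 3 rose (Hk2, Pdk1 and Vegfa) and 3 fell (Bnip3, Egln3 and Ankrd37), against 45.4% of all genes called, 22.8% higher and 22.7% lower. Libraries did not overlap for the 6 genes called, and for 44.8% of all genes. Without HT-DNA+AOA replicate 1, 2 or 3 the genes called were 5, 6 and 7, beside 44.2%, 39.0% and 51.1% of all genes. Scaling by library totals left Hk2 not called (0.19) and Ldha called lower (-0.26). These comparisons share no library, and Hk2, Pdk1 and Vegfa rose and Bnip3 and Egln3 fell in both.

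Aspartate moved most of these genes the other way. In AOA+Asp compared with AOA, 6 fell (Slc2a1, Hk2, Ldha, Pfkfb3, Pdk1 and Vegfa) and 2 rose (Bnip3 and Egln3), against 46.3% of all genes called, 22.8% lower and 23.5% higher. The libraries did not overlap for 8 of 9, again all but Ankrd37, and for 56.8% of all genes. In HT-DNA+AOA+Asp compared with HT-DNA+AOA, 5 fell (Slc2a1, Hk2, Ldha, Pdk1 and Vegfa) and 3 rose (Bnip3, Egln3 and Ankrd37), against 47.7% of all genes, 23.9% lower and 23.7% higher. The libraries did not overlap for 7 of 9 and for 48.8% of all genes. This count of 8 was not reached when any 1 of the 6 libraries was left out (5 to 7 genes), and it was 7, 6 and 6 without HT-DNA+AOA replicate 1, 2 or 3, beside 55.0%, 39.7% and 41.0% of all genes. Scaling by library totals ended the calls for Slc2a1 (-0.13), Hk2 (-0.18) and Ldha (-0.15). Each of these comparisons shares its AOA libraries with the AOA comparison before it, so the opposite signs are not independent of each other. Between AOA+Asp and Mock, 1 of 9 was called (Egln3, lower), while 6.47% of all genes were, 2.52% higher and 3.95% lower. Egln3 was also the 1 gene without overlap, as were 32.7% of all genes. Between HT-DNA+AOA+Asp and HT-DNA, 3 of 9 were called (Vegfa higher, Ldha and Egln3 lower), while 46.6% of all genes were, 23.2% higher and 23.5% lower. Those 3 and Slc2a1 did not overlap, and neither did 61.1% of all genes.

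HT-DNA alone raised 4 genes of glucose use, Hk2, Ldha, Pfkfb3 and Slc2a1, the last turning to -0.018 and not called with a correction for GC content and length. The other 5 genes were not called, against 48.2% of all genes called, 24.2% higher and 24.0% lower. The libraries did not overlap for these 4 and Vegfa, and for 61.3% of all genes.

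**Figure D3:**
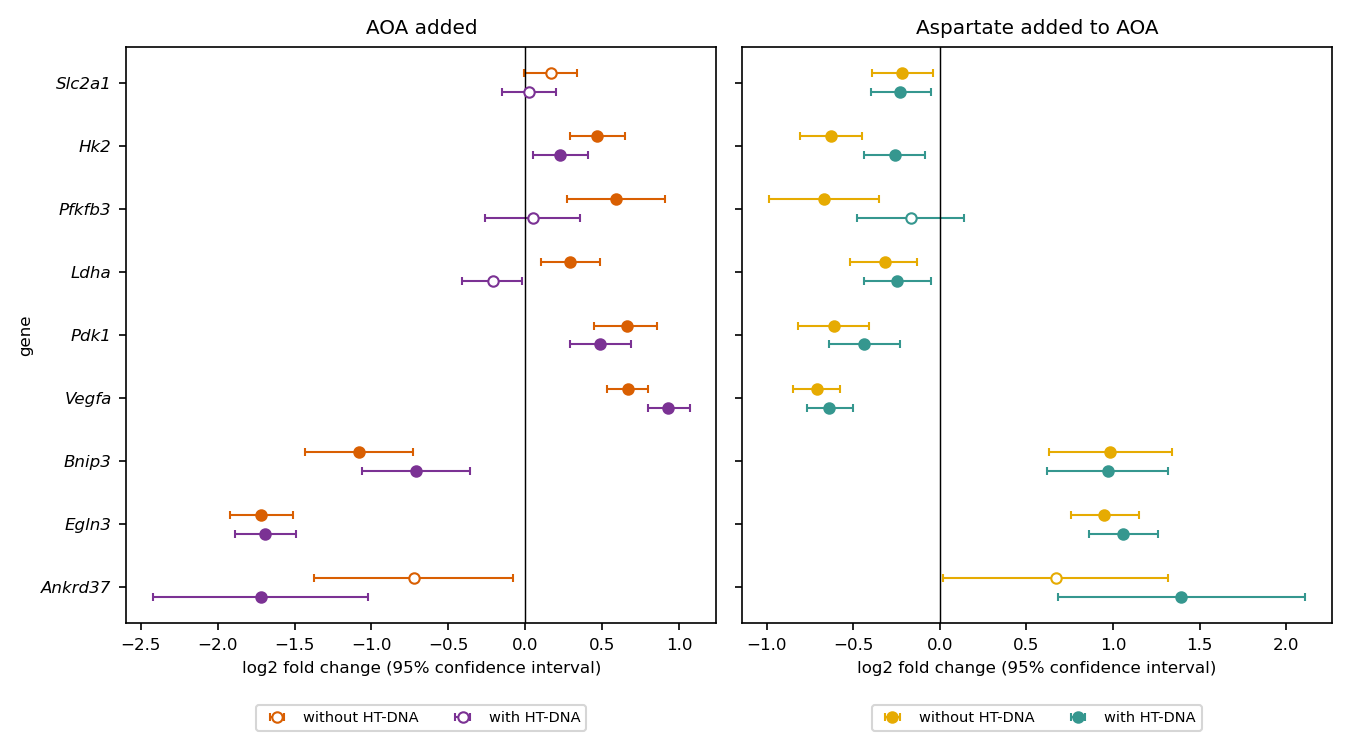
Log2 fold change of each gene (x axis) with its 95% confidence interval, when AOA was added (left) and when aspartate was added to AOA (right), without and with HT-DNA. Filled points were called at an adjusted p under 0.05 and open points were not. In the left panel Egln3 lies at -1.72 and -1.69 and Vegfa at 0.67 and 0.93, and in the right panel both lie on the opposite side of 0.

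Egln3, the HIF prolyl hydroxylase that is itself a HIF target, had the largest log2 fold change with AOA among the 9 genes without HT-DNA. Its libraries read 253, 271 and 292 CPM in Mock, 74.5, 88.9 and 85.1 in AOA and 137, 182 and 163 in AOA+Asp. With HT-DNA they read 256, 273 and 254, with HT-DNA+AOA 77.9, 83.3 and 81.9, and with HT-DNA+AOA+Asp 153, 172 and 181. Every AOA library was below every Mock library, every AOA+Asp library lay between them, and the same order held with HT-DNA. AOA lowered it 3.28-fold, a log2 fold change of -1.72 (SE 0.0964, adjusted p = 1.31e-10), and in HT-DNA–stimulated cells 3.22-fold, -1.69 (SE 0.0965, adjusted p = 1.08e-10). Aspartate raised it by 0.95 (SE 0.0952, adjusted p = 2.88e-07) without and 1.06 (SE 0.0955, adjusted p = 6.16e-08) with HT-DNA. It stayed below the group without AOA, with a log2 fold change of -0.76 (SE 0.0936, adjusted p = 4.18e-05) compared with Mock and -0.63 (SE 0.0935, adjusted p = 7.35e-05) compared with HT-DNA. It was the one gene of the 9 still called against Mock once aspartate was present. HT-DNA alone left it at -0.06 (95% confidence interval -0.25 to 0.13), and the AOA effect differed between cells with and without HT-DNA by 0.028 (95% confidence interval -0.25 to 0.31).

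Bnip3, a mitochondrial receptor for mitophagy and a HIF target, fell with AOA and rose again with aspartate. Its libraries read 32.0, 37.1 and 51.9 CPM in Mock, 15.2, 22.3 and 19.7 in AOA and 35.3, 36.7 and 41.3 in AOA+Asp. The HT-DNA libraries gave 30.3, 37.1 and 36.0, those with HT-DNA+AOA 23.7, 18.9 and 20.8, and those with HT-DNA+AOA+Asp 35.4, 40.1 and 48.6. The 6 libraries with AOA and no aspartate were the lowest 6 of the 18, and the other 4 groups overlapped. The log2 fold change with AOA was -1.08 (SE 0.167, adjusted p = 4.17e-05) without and -0.71 (SE 0.168, adjusted p = 0.00193) with HT-DNA, and with aspartate 0.98 (SE 0.168, adjusted p = 0.000113) and 0.97 (SE 0.167, adjusted p = 0.000119). AOA+Asp differed from Mock by -0.091 (95% confidence interval -0.43 to 0.24), which was not called.

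Ankrd37, an ankyrin repeat protein and HIF target, was low throughout. It read 0.973, 1.71 and 1.61 CPM in Mock, 0.673, 0.730 and 1.22 in AOA and 0.840, 1.71 and 1.56 in AOA+Asp. With HT-DNA it read 1.57, 1.66 and 1.83, with HT-DNA+AOA 0.522, 0.411 and 0.596, and with HT-DNA+AOA+Asp 1.60, 1.11 and 1.33. The HT-DNA+AOA libraries were the lowest 3 of the 18, while AOA overlapped Mock. In HT-DNA–stimulated cells AOA lowered it 3.31-fold, -1.72 (SE 0.334, adjusted p = 0.000312), and aspartate raised it by 1.39 (SE 0.342, adjusted p = 0.00264). Without HT-DNA the AOA change of -0.72 (SE 0.308, adjusted p = 0.0627) and the aspartate change of 0.67 (SE 0.31, adjusted p = 0.0869) were not called, and single libraries decided this. AOA vs Mock was called without Mock replicate 1 (-0.94) or AOA replicate 3 (-1.02), and AOA+Asp vs AOA without AOA replicate 3 (0.96) or AOA+Asp replicate 1 (0.92).

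Vegfa encodes the angiogenic growth factor VEGF-A and is a HIF target, but its direction was opposite to that of Egln3. Its libraries read 118, 127 and 123 CPM in Mock, 208, 196 and 179 in AOA and 119, 115 and 121 in AOA+Asp. With HT-DNA they read 109.7, 108 and 114, with HT-DNA+AOA 219, 217 and 198, and with HT-DNA+AOA+Asp 136, 139 and 133. All libraries with AOA and no aspartate lay above the other 12. AOA raised it 1.59-fold, 0.67 (SE 0.0647, adjusted p = 1.6e-07), and 1.91-fold in HT-DNA–stimulated cells, 0.93 (SE 0.065, adjusted p = 1.47e-09), and aspartate lowered it. The log2 fold change with aspartate was -0.71 (SE 0.0647, adjusted p = 9.95e-08) without and -0.64 (SE 0.0646, adjusted p = 2.74e-07) with HT-DNA. With HT-DNA it remained above its level without AOA, 0.30 (SE 0.0648, adjusted p = 0.00145). With HT-DNA present AOA had a greater effect, by 0.27 (SE 0.0912, adjusted p = 0.0538), which missed the threshold, and without AOA replicate 1 (0.32) or HT-DNA+AOA replicate 3 (0.31) it passed. The change with HT-DNA alone, -0.15 (SE 0.0648, adjusted p = 0.0712), was not called either.

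Pdk1, the kinase that inactivates pyruvate dehydrogenase and so keeps pyruvate from the mitochondrial oxidation route, rose with AOA. Its libraries read 31.6, 32.5 and 34.9 CPM in Mock, 55.3, 53.0 and 47.8 in AOA and 33.2, 35.7 and 33.2 in AOA+Asp. The HT-DNA libraries gave 31.1, 37.7 and 35.4, those with HT-DNA+AOA 56.5, 46.7 and 43.1, and those with HT-DNA+AOA+Asp 34.7, 34.8 and 38.7. The libraries with AOA and no aspartate were again the highest 6, and the other 4 groups overlapped. The rise was 0.66 (SE 0.097, adjusted p = 2.31e-05) without and 0.49 (SE 0.0972, adjusted p = 0.000395) with HT-DNA, and the fall with aspartate -0.61 (SE 0.0969, adjusted p = 5.25e-05) and -0.44 (SE 0.0971, adjusted p = 0.00122). HT-DNA alone gave 0.075 (95% confidence interval -0.13 to 0.28).

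Slc2a1 encodes the glucose transporter GLUT1, the entry point of glycolysis, and moved least of the 9 genes with AOA. Its libraries read 135, 138 and 155 CPM in Mock, 156, 167 and 158 in AOA and 119.9, 151 and 143 in AOA+Asp. With HT-DNA they read 166, 166 and 172, with HT-DNA+AOA 156, 169 and 187, and with HT-DNA+AOA+Asp 143, 144 and 152. The highest Mock library and the lowest AOA library differed by less than 1 CPM. AOA gave 0.17 (SE 0.0831, adjusted p = 0.11) and, with HT-DNA, 0.023 (SE 0.083, adjusted p = 0.844), neither of them called. The falls with aspartate, -0.22 (SE 0.0831, adjusted p = 0.0408) and -0.23 (SE 0.0831, adjusted p = 0.0316), and the rise with HT-DNA, 0.24 (SE 0.083, adjusted p = 0.025), were called. With a correction for GC content and length the HT-DNA change became -0.018 and the falls -0.097 and -0.13, none of them called. Several single libraries also decided these calls, since leaving out 1 of 5 libraries ended the first fall (AOA replicates 1, 2 and 3, AOA+Asp replicates 1 and 3, values -0.24 to -0.12). The second fall was lost without HT-DNA+AOA replicate 2 or 3 or HT-DNA+AOA+Asp replicate 1 or 2 (-0.23 to -0.16), and the HT-DNA rise without Mock replicate 1 or 2 or HT-DNA replicate 3 (0.20 to 0.22).

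Hk2, hexokinase 2, which traps glucose in the cell by phosphorylation, rose with AOA and with HT-DNA. Its libraries read 106, 114 and 101 CPM in Mock, 166, 148 and 128 in AOA and 92.8, 101 and 92.6 in AOA+Asp. The HT-DNA libraries gave 131, 142 and 135, those with HT-DNA+AOA 177, 150.3 and 151, and those with HT-DNA+AOA+Asp 137, 129.7 and 132. All Mock and AOA+Asp libraries lay below the other 12. AOA raised it by 0.47 (SE 0.0865, adjusted p = 0.00023), HT-DNA by 0.35 (SE 0.0865, adjusted p = 0.00302), and AOA on top of HT-DNA by 0.23 (SE 0.0862, adjusted p = 0.0352). The last call was lost without HT-DNA replicate 1 (0.20) or 3 (0.22) or HT-DNA+AOA replicate 1 (0.15). Aspartate lowered it, with a log2 fold change of -0.63 (SE 0.0868, adjusted p = 1.23e-05) without HT-DNA and -0.26 (SE 0.0862, adjusted p = 0.0172) with it, and the second call was lost without HT-DNA+AOA replicate 1 (-0.18) or HT-DNA+AOA+Asp replicate 2 (-0.24) or 3 (-0.25).

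Pfkfb3 makes fructose 2,6-bisphosphate, the activator of phosphofructokinase. It read 5.21, 4.78 and 3.94 CPM in Mock, 6.78, 7.73 and 6.45 in AOA and 4.81, 4.60 and 3.83 in AOA+Asp. With HT-DNA it read 7.18, 8.86 and 6.42, with HT-DNA+AOA 8.78, 7.91 and 6.50, and with HT-DNA+AOA+Asp 7.40, 6.54 and 6.68. As for Hk2, Mock and AOA+Asp were below every other library, and the remaining 4 groups overlapped. AOA raised it 1.51-fold, 0.59 (SE 0.152, adjusted p = 0.00384), and HT-DNA 1.61-fold, 0.69 (SE 0.151, adjusted p = 0.00135). AOA added to HT-DNA gave 0.05 (95% confidence interval -0.26 to 0.36). Aspartate lowered it without HT-DNA, -0.67 (SE 0.154, adjusted p = 0.00161), and with HT-DNA the value was -0.17 (95% confidence interval -0.48 to 0.14). The AOA effect differed with HT-DNA by -0.54 (SE 0.212, adjusted p = 0.0873), which was not called.

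Ldha, lactate dehydrogenase A, which reoxidizes NADH as it makes lactate, was the 1 gene of the 9 whose AOA effect was called different in the presence of HT-DNA. Its libraries read 1174, 1259.8 and 1255 CPM in Mock, 1427, 1565 and 1530.5 in AOA and 1129, 1301 and 1182 in AOA+Asp. With HT-DNA they read 1864, 1752 and 1938, with HT-DNA+AOA 1343, 1568 and 1877, and with HT-DNA+AOA+Asp 1324, 1327 and 1389. The AOA libraries were above Mock, whereas the HT-DNA+AOA libraries were widely spread, 1 of them within the range of HT-DNA and 1 within that of HT-DNA+AOA+Asp. AOA raised it by 0.29 (SE 0.0916, adjusted p = 0.0135) and HT-DNA by 0.59 (SE 0.0918, adjusted p = 7.43e-05), while AOA added to HT-DNA gave -0.21 (SE 0.0916, adjusted p = 0.0642), not called. The difference between these AOA effects was -0.51 (SE 0.13, adjusted p = 0.0152), and it ran from -0.64 to -0.40, called each time, when each of the 12 libraries was left out in turn. Aspartate lowered Ldha without HT-DNA, -0.32 (SE 0.0917, adjusted p = 0.00728), and with it, -0.25 (SE 0.0916, adjusted p = 0.0342), and HT-DNA+AOA+Asp was below HT-DNA, -0.46 (SE 0.0917, adjusted p = 0.000737). The AOA rise was lost without Mock replicate 1 (0.26) or AOA replicate 2 (0.27) and was 0.16, not called, when libraries were scaled by their totals. The fall with aspartate in HT-DNA–stimulated cells was lost without any of 5 libraries (HT-DNA+AOA replicates 2 and 3, HT-DNA+AOA+Asp replicates 1, 2 and 3, values -0.27 to -0.11). Without HT-DNA+AOA replicate 3 the AOA change with HT-DNA was -0.35 and called.

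The order of the 6 groups differed between genes. By group mean, Egln3 ran from Mock (272 ± 19.8 CPM, SD, n = 3) and HT-DNA (261 ± 10.0), whose libraries overlapped, through HT-DNA+AOA+Asp (169 ± 14.3) and AOA+Asp (161 ± 22.4), which overlapped as well, to AOA (82.8 ± 7.46) and HT-DNA+AOA (81.0 ± 2.77), again overlapping. Vegfa ran from HT-DNA+AOA (211 ± 11.7 CPM) and AOA (194 ± 14.9), which overlapped, to HT-DNA+AOA+Asp (136 ± 2.99), then Mock (122 ± 4.50) and AOA+Asp (119 ± 2.98), which overlapped, and HT-DNA last (111 ± 2.76). Ldha was highest in HT-DNA (1851 ± 94.0 CPM), then HT-DNA+AOA (1596 ± 268) and AOA (1507 ± 71.9), each overlapping the next, then HT-DNA+AOA+Asp (1346 ± 36.6), and lowest in Mock (1229.7 ± 48.1) and AOA+Asp (1204 ± 88.4), which overlapped. Hk2 and Pfkfb3 shared an order apart from AOA and HT-DNA, which swapped places, with HT-DNA+AOA (159.6 ± 15.4 and 7.73 ± 1.15 CPM) on top and, apart from the rest, Mock (107 ± 6.71 and 4.64 ± 0.644) and AOA+Asp (95.4 ± 4.68 and 4.41 ± 0.512) at the bottom, and in both genes neighbours on either side of that gap overlapped. Slc2a1 was led by HT-DNA+AOA (171 ± 15.1 CPM), HT-DNA (168 ± 3.59) and AOA (160.1 ± 6.03), which overlapped in turn. Below them came HT-DNA+AOA+Asp (146 ± 4.75), Mock (143 ± 10.9) and AOA+Asp (138 ± 16.2), which overlapped in turn as well. For Pdk1, AOA (52.0 ± 3.83 CPM) and HT-DNA+AOA (48.8 ± 6.92) overlapped each other above the remaining groups. For Bnip3, HT-DNA+AOA (21.1 ± 2.43 CPM) and AOA (19.0 ± 3.57) overlapped each other below the remaining groups. Ankrd37 was lowest in HT-DNA+AOA (0.510 ± 0.0935 CPM), apart from the other 5 groups, each of which overlapped the next.

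Whether the effects depended on HT-DNA was tested directly. For the AOA effect, 1 of 9 genes was called (Ldha, smaller with HT-DNA), against 15.5% of all genes, 7.23% higher and 8.26% lower. Without HT-DNA+AOA replicate 1, 2 or 3 it was 1, 1 and 2 of the 9, beside 11.0%, 9.61% and 37.2% of all genes. For the effect of aspartate on AOA-treated cells, 0 of 9 were called by edgeR's quasi-likelihood test or by DESeq2, against 1.05% of all genes, 0.266% higher and 0.785% lower, and 2 had an unadjusted p under 0.05. These were Hk2, whose fall was smaller with HT-DNA by 0.37 (unadjusted p = 0.00757, adjusted p = 0.203), and Pfkfb3, by 0.50 (unadjusted p = 0.0312, adjusted p = 0.398). Without HT-DNA+AOA replicate 1 the Hk2 difference was 0.45 and called.

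The genes that make up the HIF switch were looked at next. Of 9 HIF subunits and regulators, 6 were expressed above the filter, and Epas1, Hif3a and Arnt2 were not. Beside 45.7% of all genes called, AOA lowered 2 of them, Egln1 (-0.43, SE 0.0877, adjusted p = 0.00057), the main hydroxylase of the alpha subunit, and Hif1an (-0.35, SE 0.0652, adjusted p = 0.00022), which hydroxylates its transactivation domain. Hif1a itself read -0.054 (95% confidence interval -0.27 to 0.17). In HT-DNA–stimulated cells all 6 were called with AOA, beside 45.4% of all genes. They were called too without HT-DNA+AOA replicate 1, 2 or 3, beside 44.2%, 39.0% and 51.1% of all genes. Hif1a (0.47, SE 0.106, adjusted p = 0.00118) and Arnt (0.42, SE 0.096, adjusted p = 0.00142) rose, and Egln1 (-0.78), Egln2 (-0.64), Hif1an (-0.33) and Vhl (-0.31) fell. HT-DNA alone raised 3 of the 6 and lowered 2, beside 48.2% of all genes called. With the correction for GC content and length 2 of these 5 calls were lost. Mean levels in Mock, HT-DNA and HT-DNA+AOA were 252, 210 and 291 CPM for Hif1a and 54.0, 37.3 and 49.8 for Arnt. They were 40.9, 51.0 and 29.8 CPM for Egln1 and 46.1, 60.4 and 38.8 for Egln2. For Hif1an they were 67.4, 61.7 and 49.1 CPM, and for Vhl 30.0, 36.0 and 29.0. On Hif1a, AOA had a greater effect in HT-DNA–stimulated cells, by 0.53 (SE 0.149, adjusted p = 0.0245), but with a correction for GC content and length this was 0.23 and not called, and without HT-DNA+AOA replicate 2 it was 0.52 and not called. Aspartate raised Egln1 by 0.46 (SE 0.0877, adjusted p = 0.000337) without and 0.51 (SE 0.0882, adjusted p = 0.000113) with HT-DNA. Over the 6 genes aspartate raised 2 and lowered 0, without and with HT-DNA alike, beside 46.3% and 47.7% of all genes called. With HT-DNA the 2 calls became 2, 2 and 3 without HT-DNA+AOA replicate 1, 2 or 3, beside 55.0%, 39.7% and 41.0% of all genes. Mean levels in HT-DNA+AOA+Asp were 275 CPM for Hif1a and 52.7 for Arnt. The median of the 6 was -0.16 for AOA vs Mock and -0.32 for HT-DNA+AOA vs HT-DNA, beside 0.015 and 0.024 over all genes tested.

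Other HIF targets also moved in both directions. Of 25 further targets, 23 passed the filter, and with AOA 5 rose and 9 fell (median -0.16, beside 0.015 over all genes tested). The 5 that rose were Ddit4, Ero1a, Ndrg1, P4ha1 and Cited2, the last 2 named after their values were seen. Ddit4, which restrains mTOR, rose (1.05, SE 0.109, adjusted p = 3.71e-07) and the cyclin G2 gene Ccng2 fell (-0.79, SE 0.112, adjusted p = 1.48e-05), while the lactate exporter Slc16a3 read -0.87 (SE 0.434, adjusted p = 0.11), not called. In HT-DNA–stimulated cells 6 rose and 9 fell (median -0.14). Without HT-DNA+AOA replicate 1, 2 or 3 the genes called were 15, 15 and 18, beside 44.2%, 39.0% and 51.1% of all genes. The changes in the fit of all libraries were led by the oxidative folding enzyme Ero1a (1.44, SE 0.13, adjusted p = 4.37e-08), Ndrg1 (1.43, SE 0.117, adjusted p = 1.15e-08) and Ccng2 (-1.21, SE 0.129, adjusted p = 3.32e-07). HT-DNA alone raised 4 of the 23 and lowered 9, beside 48.2% of all genes called. Mean levels of Ero1a were 309 CPM in Mock, 169 in HT-DNA, 486 in AOA and 456 in HT-DNA+AOA. In the same order Ndrg1 read 97.8, 58.2, 156 and 157 CPM, and Ccng2 29.9, 15.2, 17.2 and 6.52. Aspartate added to AOA gave 8 rises and 7 falls without HT-DNA, and the same numbers with it, 15 of 23 each time beside 46.3% and 47.7% of all genes. Between AOA+Asp and Mock 1 of 23 was called beside 6.47% of all genes, Bhlhe40 (-0.50, SE 0.0645, adjusted p = 6.41e-05), named after its value was seen. Between HT-DNA+AOA+Asp and HT-DNA 14 of 23 were called, 9 higher and 5 lower, beside 46.6% of all genes. With the correction for GC content and length 6 of these 14 calls were lost. For the AOA effect, the 14 of 23 called without HT-DNA and 15 of 23 with it stand beside 45.7% and 45.4% of all genes.

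The remaining steps of glycolysis moved in both directions with AOA. Of 17 genes listed, 16 were tested. AOA raised 4 and lowered 5 (median 0.027), so that 9 of 16 were called beside 45.7% of all genes, among them the lactate carrier Slc16a1 (0.70, SE 0.0769, adjusted p = 6.95e-07) upwards and the brain-type aldolase Aldoc (-0.63, SE 0.12, adjusted p = 0.000292) and hexokinase 1, Hk1 (-0.60, SE 0.0616, adjusted p = 3.04e-07), downwards. The hexokinases went in opposite directions, Hk2 up and Hk1 down. HT-DNA raised 8 and lowered 1 (median 0.31, beside -0.0076 over all genes), 9 of 16 beside 48.2% of all genes called, a count that lost 3 of its 9 calls with the correction for GC content and length. AOA added to HT-DNA raised 3 and lowered 5 (median -0.15), 8 of 16 beside 45.4% of all genes, including Hk1 (-0.64), Pfkl (-0.55) and Aldoc (-0.53). Without HT-DNA+AOA replicate 1, 2 or 3 the 8 became 8, 7 and 13, beside 44.2%, 39.0% and 51.1% of all genes. Like Ldha, 4 of the 16 had an AOA effect that was lower with HT-DNA, Pfkl (-0.49, SE 0.131, adjusted p = 0.0201), and, named after their values were seen, Gpi1 (-0.43), Eno1 (-0.43) and Pgam1 (-0.37). In 2 the AOA effect was higher with HT-DNA, Eno2 (0.53) and Pfkp (0.41), also named after their values were seen. These 6 of 16 stand beside 15.5% of all genes called, 8.26% lower and 7.23% higher. They became 5, 4 and 9 without HT-DNA+AOA replicate 1, 2 or 3, beside 11.0%, 9.61% and 37.2% of all genes. The call for Eno1 was lost without replicate 1 (-0.35) or 2 (-0.39) and that for Pgam1 without replicate 2 (-0.36).

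Several paralogs of Pfkfb3 and Pdk1 fell with AOA, while Pfkfb3 and Pdk1 rose. AOA lowered Pfkfb4 (-0.99, SE 0.108, adjusted p = 7.08e-07), a HIF target in other cells, Pfkfb1 (-0.45), Pdk2 (-1.05, SE 0.13, adjusted p = 3.15e-06) and the pyruvate dehydrogenase phosphatase Pdp2 (-0.82), and Pdk3 read -0.0072 (95% confidence interval -0.17 to 0.16). Tigar, a fructose bisphosphatase that lowers fructose 2,6-bisphosphate, was the 1 gene of these 10 that rose (0.21), and scaling by library totals ended that call (0.075). In HT-DNA–stimulated cells AOA lowered Pdk4 (-1.77, SE 0.339, adjusted p = 0.000281), Pfkfb4 (-1.13) and Pdk2 (-0.97) and raised Tigar (0.31) and Pdha1 (0.20), and the Pdha1 call was lost without HT-DNA+AOA replicate 1 (0.14) or 2 (0.18). Pdk4 was near the floor, with means of 1.12 CPM in HT-DNA and 0.326 in HT-DNA+AOA. Both AOA comparisons called 5 of the 10, beside 45.7% of all genes without and 45.4% with HT-DNA. Aspartate raised 4 of the 10 and lowered 1 without HT-DNA, and raised 6 and lowered 1 with it, beside 46.3% and 47.7% of all genes called. The 7 with HT-DNA became 8, 5 and 5 without HT-DNA+AOA replicate 1, 2 or 3, beside 55.0%, 39.7% and 41.0% of all genes. The median of the 10 was -0.31 for AOA vs Mock and -0.00064 for HT-DNA+AOA vs HT-DNA.

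The shuttles that carry NADH reducing power into mitochondria moved in both directions with AOA. AOA raised the aspartate aminotransferases Got1 (0.46, SE 0.0649, adjusted p = 1.36e-05) and Got2 (0.39, SE 0.0682, adjusted p = 0.000131), the malate dehydrogenase Mdh2 (0.30) and the oxoglutarate carrier Slc25a11 (0.35). It lowered the aspartate-glutamate carriers Slc25a12 (-0.65, SE 0.0703, adjusted p = 6.18e-07) and Slc25a13 (-0.73, SE 0.0787, adjusted p = 6.01e-07) and the glycerol phosphate dehydrogenases Gpd1l (-0.61) and Gpd1 (-0.32). Scaling by library totals ended the calls for Mdh2 (0.17) and Slc25a11 (0.22). These 8 of 10 stand beside 45.7% of all genes called with AOA. In HT-DNA–stimulated cells AOA raised 1 of the 10 and lowered 4, beside 45.4% of all genes. These 5 calls became 7, 5 and 6 without HT-DNA+AOA replicate 1, 2 or 3, beside 44.2%, 39.0% and 51.1% of all genes. From HT-DNA to HT-DNA+AOA, mean levels ran from 413 to 441 CPM for Got2, 651 to 643 for Mdh2 and 58.0 to 67.5 for Slc25a11. With aspartate 7 of the 10 were called, 4 lower and 3 higher, beside 46.3% of all genes. The AOA effect was lower with HT-DNA for 2 of the 10, Got2 (-0.30) and Gpd1 (-0.49), beside 15.5% of all genes called. Both calls were lost without HT-DNA+AOA replicate 2 (-0.28 and -0.47). The median was 0.094 for AOA vs Mock and -0.052 for HT-DNA+AOA vs HT-DNA.

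In the VEGF family, 5 of 9 genes passed the filter, with a median of -0.32 for AOA vs Mock and -0.30 for HT-DNA+AOA vs HT-DNA. AOA lowered placental growth factor Pgf (-0.67, SE 0.181, adjusted p = 0.00523) and Vegfd (-0.59, SE 0.0975, adjusted p = 8.2e-05) and raised the receptor Nrp2 (0.38, SE 0.0801, adjusted p = 0.000708), so the ligands Vegfa and Vegfd moved oppositely. These 3 of 5 stand beside 45.7% of all genes called. In HT-DNA–stimulated cells, with 4 of 5 called beside 45.4% of all genes, Nrp2 rose (0.69) and Pgf (-0.89), Vegfd (-0.43) and Vegfb (-0.30) fell, and the Vegfb value became 0.024 when GC content and length were corrected for, and it was not called without HT-DNA+AOA replicate 1 (-0.19) or 2 (-0.31). Myc, which like HIF drives transcription of glycolytic genes, rose from 139 to 537 CPM with AOA (1.95, SE 0.0669, adjusted p = 1.06e-13) and fell with aspartate (-1.83, SE 0.0666, adjusted p = 4.55e-13). With HT-DNA the values were 1.89 and -1.81. Its part in the changes of the 9 genes was not tested. Atf4, a stress-response factor, read 0.16 with AOA and was not called. Aspartate added to AOA lowered it (-0.20) and HT-DNA alone raised it (0.21), both called, beside 46.3% and 48.2% of all genes. Of the 2 calls for Myc and Atf4, scaling by library totals ended 1 in each of these comparisons. Adjusting for gene length and GC content likewise ended 1 of 2 for HT-DNA alone. In HT-DNA–stimulated cells Atf4 read -0.037 with AOA and -0.081 with aspartate, neither called.

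**Figure D4:**
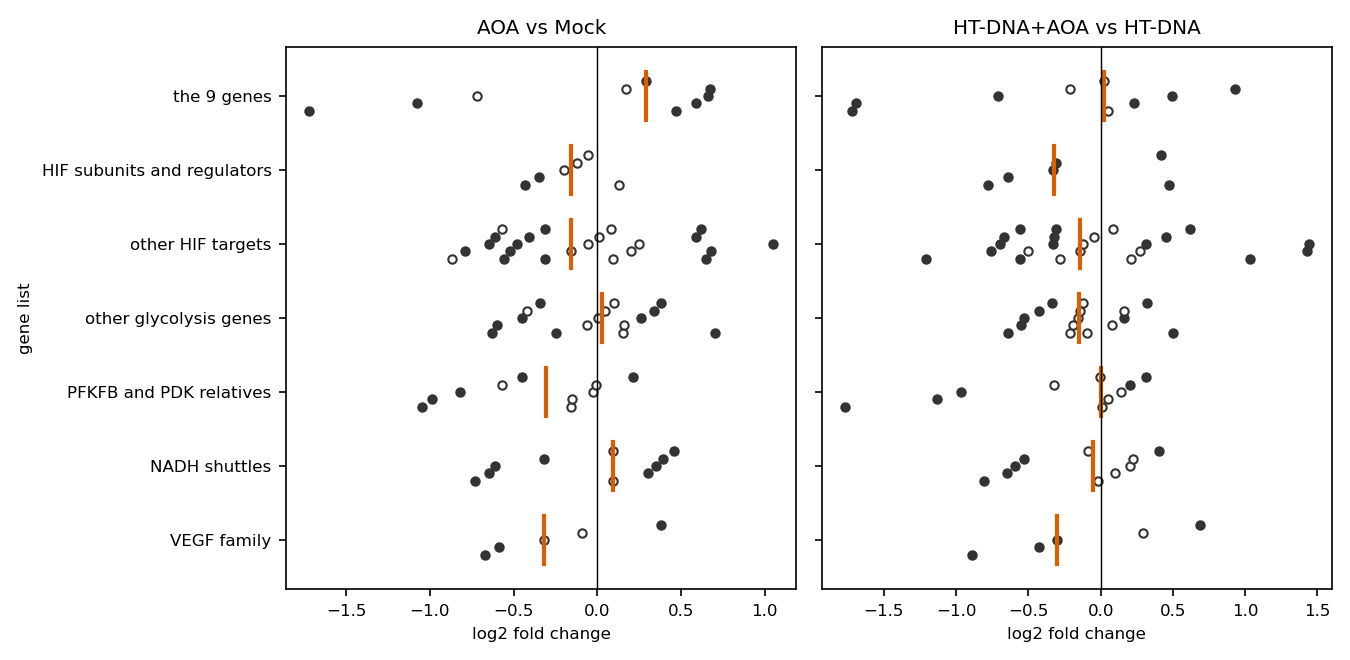
Log2 fold change (x axis) of every tested gene in 7 lists (y axis) for AOA vs Mock and for HT-DNA+AOA vs HT-DNA. Each point is a gene, filled if called and open if not, with points spread vertically only to separate them, and the orange bar is the list median. The 9 genes run from -1.72 to 0.67 for AOA vs Mock, and every list shown holds called genes on both sides of 0 in at least 1 of the panels.

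The genes whose levels followed each of the 9 most closely were found by Pearson's r of log2 CPM over the 18 libraries, which fall into 6 groups of 3. Libraries of a group share their treatment, and all share 1 scaling. Ldha was nearest to Tomm5 and Eif6 (r = 0.990 for both, Spearman's rho 0.979 and 0.975) and Vegfa to Slc20a1 (0.985, rho 0.920) and Slc49a3 (0.984, rho 0.934). Egln3 was nearest to Mvd (0.980, rho 0.953) and C2cd2l (0.977, rho 0.901), and Pdk1 to Mtpn (0.965, rho 0.841) and Ets1 (0.960, rho 0.884). Ctps was nearest to both Hk2 (0.943, rho 0.920) and Pfkfb3 (0.936, rho 0.893), followed by Nupl2 for Hk2 (0.943, rho 0.911) and Nol10 for Pfkfb3 (0.916, rho 0.796). Bnip3 was nearest to Vegfd (0.939, rho 0.820) and Lrif1 (0.937, rho 0.829), Slc2a1 to Acbd6 (0.935, rho 0.948) and Mfsd10 (0.922, rho 0.878), and Ankrd37 to Mypop (0.909, rho 0.831) and Erbb2 (0.901, rho 0.839).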

How the data were processed

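TRIzol-extracted RNA from 18 cultures of L929 cells was sequenced at Majorbio, and groups follow the labels. The authors deposited expected counts, the estimated number of reads per gene before any normalization. Of these values 11.6% were not whole, so all were rounded before testing, where the planned design had assumed counts. The aligner, counting program and genome build are not given in the sources used here. The deposited table also holds 6 group means, which were not used. edgeR 4.0.16 in R 4.3.3 was run with filterByExpr (minimum count 10, minimum total 15), TMM scaling and 1 robust quasi-likelihood fit of all 18 libraries, and Benjamini-Hochberg adjustment over 14263 genes at 0.05. CPM are edgeR values for TMM-scaled libraries. SDs are over the 3 libraries of a group. SEs and p-values rest on a spread between cultures estimated for each gene over all 6 groups, not on the compared groups alone. For Ldha the SE was 0.0916 for AOA vs Mock and for HT-DNA+AOA vs HT-DNA. The SD was 71.9 CPM in AOA and 268 in HT-DNA+AOA.

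The 9 genes and the related lists were chosen with earlier results of these data known. All members of lists of up to 10 genes could be named, and of longer lists the 3 largest changes with AOA, without and with HT-DNA. Aldoa was left out because its symbol has more than 1 tested row. Alternatives were DESeq2 1.42.0, RLE, library totals, no filter, at least 10 counts in every library, fits of just the compared groups, a minimum log2 fold change of 1, a block for the replicate number, leaving out single libraries, and a loess correction (span 0.3) for GC content and length from GENCODE vM21, which held 97.5% of tested genes. The steps were tested on simulated data, and a larger share of unchanged genes among the calls was accepted for DESeq2 than for edgeR. Exon lengths and shared 31-base sequences came from vM21, which may not be the authors' annotation, and promoters from RefSeq GRCm38.p6.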

Additional observations from a re-analysis of the deposited data

Results flagged for a closer look

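For 1 of the 9 genes the effect of AOA differed between cells with and without HT-DNA by a test of the difference itself, which called 15.5% of all genes, so the count of 1 is not a result about these 9. The Ldha log2 fold change was 0.29 for AOA vs Mock and -0.21 for HT-DNA+AOA vs HT-DNA, a difference of -0.51 (edgeR's quasi-likelihood test, adjusted p = 0.0152). All 3 AOA libraries were above all 3 Mock libraries, and 2 of 3 HT-DNA+AOA libraries were below all HT-DNA libraries. Replicate 3 of HT-DNA+AOA, at 1877 CPM, was within the range of HT-DNA. Reads that Ldha shares with similar transcripts were not told apart, and their part in the difference was not tested.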

How the results depend on the processing

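Over the 81 values of the 9 genes (9 comparisons each), 639 of the refits under other settings kept direction and side of the threshold, 48 lost the call, 21 gained it and 12 changed sign, and of the refits without 1 library 532 kept both, 25 lost the call, 8 gained it and 29 changed sign. The cause of these changes was not tested, except that a minimum log2 fold change of 1 is stricter by construction. With it 2 of the 9 genes were called for AOA vs Mock, 2 for HT-DNA+AOA vs HT-DNA, 2 for HT-DNA+AOA+Asp vs HT-DNA+AOA, and 0 for the other 4 comparisons and the AOA by HT-DNA difference. For HT-DNA+AOA+Asp vs HT-DNA+AOA, 5 were called with library totals and 5 with only the groups compared, and 5 to 7 without 1 library. The AOA by HT-DNA difference was called for 2 genes under RLE, library totals, at least 10 counts in every library (8 genes tested, without Ankrd37), DESeq2, and the GC content and length correction, and for 1 to 2 without 1 library. For aspartate by HT-DNA it was 0 to 1 without 1 library. The replicate numbers did not pair the libraries, since 1 of 21 correlations of same-numbered deviations was over 0.1 (-0.104 to 0.134) and 9 of 18 libraries were closest to their own number. With the replicate number as a block 7 genes were called for HT-DNA+AOA vs HT-DNA, 4 for HT-DNA+AOA+Asp vs HT-DNA, and 2 for the AOA by HT-DNA difference, and no call was lost. The share of all genes called in the same refit is not set beside the counts in this paragraph. They are therefore not results about the 9 genes.

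Among the changes of sign, 2 began from a value whose 95% interval left out 0, Slc2a1 for HT-DNA vs Mock (0.24) and for HT-DNA+AOA+Asp vs HT-DNA (-0.20). With the GC content and length correction the changes of sign were Slc2a1 for AOA+Asp vs Mock (0.040), HT-DNA vs Mock (-0.018), HT-DNA+AOA+Asp vs HT-DNA (0.087) and AOA by HT-DNA (0.080), Vegfa for AOA+Asp vs Mock (0.055), Egln3 for HT-DNA vs Mock (0.027), and Hk2 (9.7e-05) and Pdk1 (-0.064) for HT-DNA+AOA+Asp vs HT-DNA. With library totals they were Pdk1 for AOA+Asp vs Mock (-0.0012) and HT-DNA vs Mock (-0.036), Slc2a1 for HT-DNA+AOA vs HT-DNA (-0.018), and Hk2 for HT-DNA+AOA+Asp vs HT-DNA (0.019). Of these 12, only Slc2a1 for HT-DNA vs Mock had been called. Without 1 library, AOA+Asp vs Mock ran from -0.12 to 0.042 for Slc2a1, -0.090 to 0.013 for Ldha, -0.18 to 0.016 for Pfkfb3, -0.24 to 0.13 for Bnip3 and -0.28 to 0.19 for Ankrd37. HT-DNA+AOA vs HT-DNA ran from -0.046 to 0.081 for Slc2a1 and -0.053 to 0.19 for Pfkfb3, and HT-DNA+AOA+Asp vs HT-DNA from -0.22 to 0.0081 for Pfkfb3 and -0.019 to 0.11 for Pdk1. AOA by HT-DNA ran from -0.044 to 0.083 for Egln3, and aspartate by HT-DNA from -0.10 to 0.062 for Slc2a1, -0.029 to 0.21 for Ldha and -0.15 to 0.13 for Bnip3.

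Over all genes, library totals moved the share of calls that were higher from 49.1% to 32.1% for AOA vs Mock, from 50.7% to 62.2% for AOA+Asp vs AOA, from 39.0% to 20.9% for AOA+Asp vs Mock, from 50.2% to 35.2% for HT-DNA vs Mock, from 49.8% to 62.2% for HT-DNA+AOA+Asp vs HT-DNA+AOA, and from 46.7% to 64.5% for AOA by HT-DNA. The GC content and length correction moved it to 52.2% for AOA+Asp vs Mock and from 25.3% to 36.8% for aspartate by HT-DNA. Depth limits Ankrd37, with 8 to 42 counts, and Pfkfb3, with 83 to 187.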
